A study of Rhagoletis pomonella with 50 samples.

Results

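The apple maggot fly, Rhagoletis pomonella, lives on hawthorn and on apple. The 100 transcribed features described here were higher in one host after 2 months in the cold and higher in the other after 5 months. They were chosen on these values. For each of the 29399 features of the deposited tables, CPM (the count of a feature over the library's total, times 1000000) were averaged per host and month. The host difference was then taken as log2(apple mean CPM + 0.5) minus log2(hawthorn mean CPM + 0.5). Of the 9548 features with a mean of at least 2 CPM over all 50 libraries, 5169 had opposite signs at 2 and 5 months. The members are the 100 of these with the largest value of the smaller of the 2 differences. The last members taken had smaller differences of 0.648, 0.645 and 0.644, and the first left out had 0.640, 0.639 and 0.639. Of the members, 71 were higher in apple at 2 months, called apple-first below, and 29 were higher in hawthorn at 2 months, called hawthorn-first. The values of 2 and 5 months chose the list, so they are given as a description. Calls in these months are counts and not tests of the list.

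Diapause is a hormonally controlled arrest of development that lets an insect pass a season without food. In this fly the pupa stays in diapause under the soil, and the timing of its end sets when adults emerge in relation to the fruit. The central nervous system (CNS) both holds the endocrine centres that keep development arrested and is itself rebuilt when adult development resumes. Apple fruits ripen before hawthorn fruits, and apple flies leave diapause earlier than hawthorn flies.

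Infested fruits of both hosts came from 1 site and 1 season. Larvae from them had 10 days at about 24 °C to pupate, and pupae were then kept at 3.5 °C. RNA was extracted from pools of 10 dissected CNS at 2, 3, 4, 5 and 6 months in the cold, with 5 pools per host and month. This gives 10 groups and 50 libraries, all of wild-collected flies that had no further treatment. The labels do not say whether the pools of a group came from separate collections or dissections, so p-values measure the spread between these pools. Reads of 100 bases were mapped to the genome of a related species, Rhagoletis zephyria, so transcripts that differ between the species can be undercounted.

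Library totals ran from 8718271 to 30540959 expected counts. Identifiers of the form gene292 are those of the files, and 0 of them matched the available annotation. Members are therefore given without names or functions, the CNS label could not be checked against marker genes, and at most 2 identifiers per direction are named in each comparison. The length slope of a library is the slope of its log2 CPM, centred per feature, on log2 transcript length. It was lowest in hawthorn replicates 2 and 4 at 4 months, at -0.373 and -0.368, and no other library was below -0.176. In these libraries, which thus stood apart, long transcripts were under-represented. Hosts and sequencing lanes overlapped in part. At 2 months apple was in lanes 2 and 3 and hawthorn in lanes 1 and 7, and at 5 months apple was in lanes 5 and 6 and hawthorn in lanes 2 and 3. Lane and host therefore cannot be told apart in the months that chose the list. Levels below are CPM scaled by the trimmed mean of M values (TMM), and log2 fold changes are those of edgeR for apple over hawthorn, unless another scale is named.

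At 3, 4 and 6 months, which the choice did not use, the medians of both sets lay on the side of 2 months with all libraries, but not under every alternative given below. The median log2 fold change of the 71 apple-first members was 0.63 at 2 months, 0.26 at 3, 0.34 at 4, -0.79 at 5 and 0.30 at 6 months. For the 29 hawthorn-first members it was -1.26, -0.10, -0.53, 1.63 and -0.17. In pooled tissue a larger number of cells of a type and more RNA per cell cannot be told apart. Counted by sign, 76 of the 100 members had the sign of 2 months at 3 months, 71 at 4 months and 74 at 6 months. The sign of 5 months was seen in 24, 29 and 26 members. All 100 members also had opposite signs by edgeR's fold changes, on the TMM scale, which 3170 of the 5169 features did. Among these 3170 the sign of 2 months was seen in 62.7% at 3 months, 74% at 4 and 65.2% at 6.

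**Figure D1:**
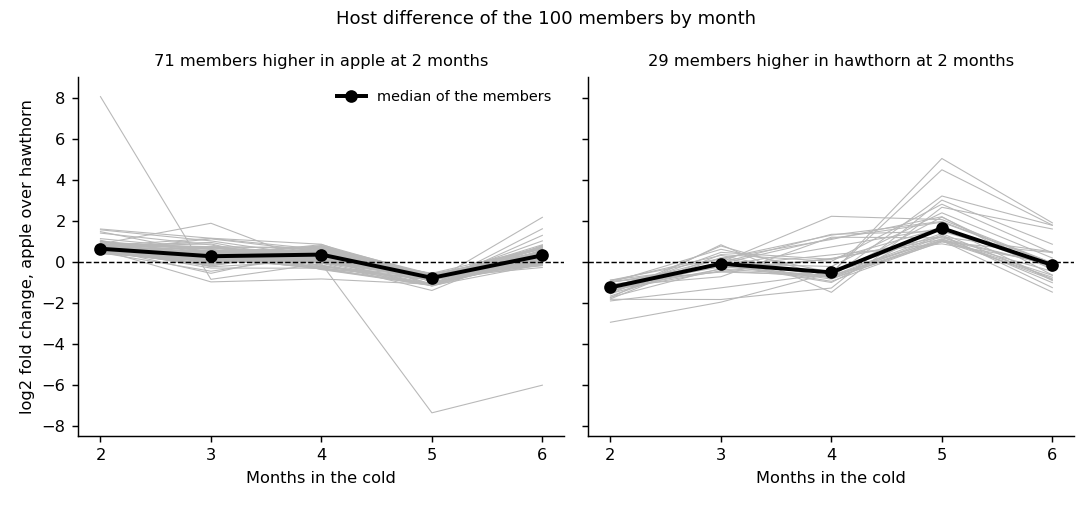
Host difference of the 71 apple-first members (left) and the 29 hawthorn-first members (right) at 2 to 6 months in the cold, as edgeR's log2 fold change of apple over hawthorn. Each grey line is 1 member and the black line is the median, which at 5 months lies at -0.79 in the left panel and 1.63 in the right panel, and lies on the side of 2 months at 3, 4 and 6 months with all libraries.

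Of the 71 apple-first members, 56 were higher in apple at 3 months, 54 at 4 months and 54 at 6 months, which is 78.9%, 76.1% and 76.1%. Among the 2313 features that were higher in apple at 2 months and lower at 5 on both scales the shares were 59.7%, 72.3% and 63.5%. Of the 29 hawthorn-first members, 20, 17 and 20 were higher in hawthorn at 3, 4 and 6 months, which is 69%, 58.6% and 69%, and the shares of the 857 features of that direction were 70.8%, 78.6% and 69.9%. The most frequent course, seen in 36 of the 71 apple-first members (50.7%), was higher in apple at 2, 3, 4 and 6 months and lower at 5 months alone. This course was seen in 33.2% of the 2313. The 71 included 3 (4.23%) that were higher in apple at 2 months and lower at each later month, beside 6.61% of the 2313. Among hawthorn-first members 8 of 29 (27.6%) were higher in apple at 5 months alone, beside 46.3% of the 857. As many, 8 of 29, were higher in apple at 4 and 5 months alone.

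The 4-month count rested on the 2 hawthorn libraries that stood apart. Without them 60 of the 100 members had the sign of 5 months at 4 months, and the medians became -0.03 for apple-first and 0.92 for hawthorn-first members. Only 32 of the 71 apple-first members were then higher in apple at 4 months, and 8 of the 29 hawthorn-first members were higher in hawthorn. The courses counted above include the sign at 4 months, so they also rest on these libraries. They were not counted again without them. Without the 6 single-index libraries of 6 months, 41 members had the sign of 5 months at 6 months, and the hawthorn-first median at 6 months was 0.16, on the side of 5 months. In lane 7 alone it was 0.05, over the 28 of these members tested.

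In both hosts the levels differed between 4 and 5 months with all libraries, in opposite directions. In apple, 67 of the 71 apple-first members had a lower mean at 5 than at 4 months, with a median log2 change of -0.68, and 68 of 71 had a higher mean at 6 than at 5 months, with a median of 0.83. In hawthorn, 62 of the 71 had a higher mean at 5 than at 4 months, with a median of 0.42, and 59 of 71 had a lower mean at 6 than at 5 months, with a median of -0.25. With all libraries the hawthorn-first members took the opposite course. In apple 23 of the 29 were higher at 5 than at 4 months and 27 of 29 were lower again at 6 months. In hawthorn 25 of 29 were lower at 5 than at 4 months, and 26 of 29 were higher at 6 than at 5 months. The 5-month libraries are shared by each pair of steps, and the choice of members used them. The hawthorn step from 4 to 5 months also includes replicates 2 and 4 of 4 months, which stood apart. On the centred log2 level described next these had -0.61 and -0.91 (apple-first) and 1.14 and 1.11 (hawthorn-first). Replicates 1, 3 and 5 of 4 months had 0.38, 0.04 and 0.15 (apple-first), beside 0.08 to 0.42 at 5 months. For hawthorn-first they had -1.055, -0.52 and -0.55, beside -1.07 to 0.40. The step without the 2 libraries was not computed.

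To follow the sets through single libraries, each member's log2(CPM + 0.5) was centred on its mean over the 50 libraries and the median was taken over the set. For the apple-first set at 2 months this level was 0.39, 0.10, 0.45, 0.55 and 0.56 in the apple libraries and -0.18, -0.26, -0.17, -0.20 and -0.18 in the hawthorn libraries. At 5 months it was -0.63, -0.35, -0.62, -0.63 and -0.23 in apple, and 0.42, 0.08, 0.32, 0.27 and 0.13 in hawthorn. The hosts did not overlap in either month. At 3 months apple had -0.03, -0.14, 0.12, 0.11 and -0.26, and hawthorn had -0.31, -0.17, -0.31, -0.35 and -0.39, so that 1 apple library lay within the hawthorn range. At 6 months the apple libraries, at 0.36, 0.05, 0.47, 0.25 and 0.49, overlapped with hawthorn at -0.03, 0.08, -0.02, 0.09 and -0.10 through apple replicate 2 alone. At 4 months the spread was in hawthorn. Apple lay at 0.22, 0.29, 0.33, 0.05 and 0.20, and hawthorn at 0.38, -0.61, 0.04, -0.91 and 0.15, the low values being the libraries that stood apart.

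**Figure D2:**
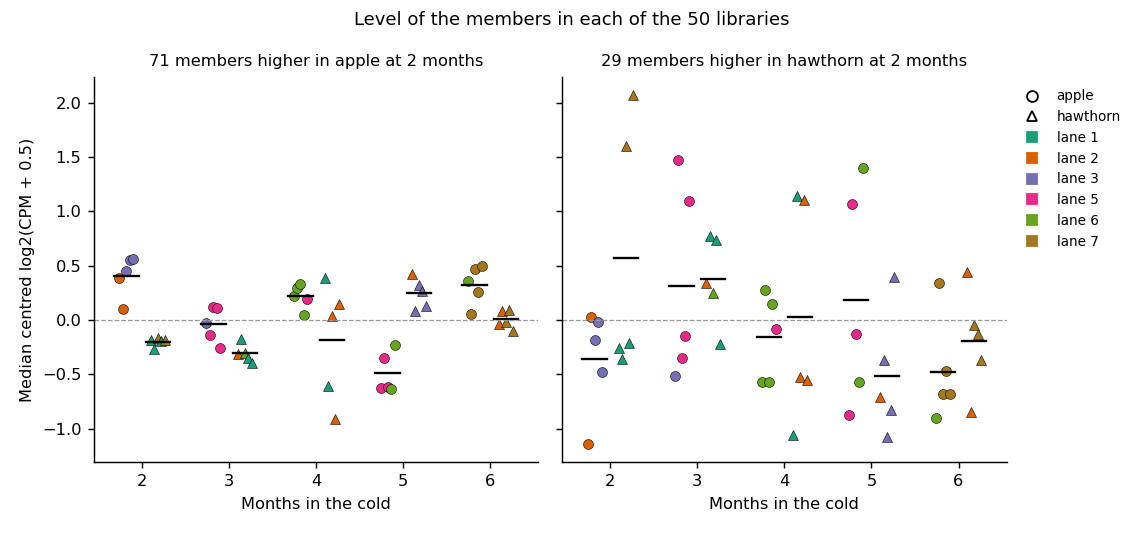
Level of the apple-first (left) and hawthorn-first (right) sets in each library, as the median over the set of log2(CPM + 0.5) centred on each member's mean, at 2 to 6 months. Circles are apple and triangles hawthorn, colours are sequencing lanes and bars are means of 5 libraries. In the left panel the hosts are apart at 2 and at 5 months with opposite signs, while in the right panel single libraries lie up to 2.07 above 0 and both hosts overlap at all 5 months.

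Among the apple-first members, the first 2 by the size of the rule's difference and the 2 with the highest mean CPM are described here. Chosen for its mean CPM, gene24627 had a mean of 259 TPM, a measure per library that is scaled by transcript length. At 2 months it had 168, 157, 223, 150.5 and 152 CPM in apple and 77.5, 128, 166, 70.5 and 60.75 CPM in hawthorn. Hawthorn replicate 3 was within the apple range and the other 4 were below it. At 5 months apple had 52.45, 130.2, 37.2, 40.04 and 111 CPM and hawthorn had 201, 173, 203, 87.4 and 48.1 CPM. The 3 highest hawthorn libraries were above all apple libraries, and the rest overlapped with them. The log2 fold change of gene24627 was 0.76 at 2 months and -0.94 at 5 months. At 3 months it was 1.13 (SE 0.499, edgeR adjusted p = 0.478), from 289, 99.7, 232, 164 and 192 CPM in apple and 152.5, 104, 103, 53.0 and 33.6 CPM in hawthorn. At 6 months it was 0.67 (SE 0.495, edgeR adjusted p = 0.566).

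The other feature chosen for its mean CPM was gene2899 (mean 12.8 TPM). Its means were 65.3 ± 13.1 CPM in apple and 49.1 ± 7.26 in hawthorn at 2 months (SD, n = 5 each), and 32.05 ± 5.81 and 52.3 ± 8.84 at 5 months. In the months that the choice did not use its means in apple and hawthorn were 43.5 ± 6.795 and 38.9 ± 5.63 CPM at 3 months, and 48.8 ± 10.2 and 57.9 ± 12.3 CPM at 4 months, where hawthorn was the higher. The fold changes were 0.16 (SE 0.162, edgeR adjusted p = 0.817) and -0.25 (SE 0.162, edgeR adjusted p = 0.335) on the log2 scale. At 6 months apple had 61.2 ± 13.5 and hawthorn 43.8 ± 5.08 CPM, a log2 fold change of 0.48 (SE 0.162, edgeR adjusted p = 0.136). By the rule's difference gene5375 came second. At 2 months it had 33.1, 31.2, 51.9, 63.2 and 65.0 CPM in apple and 23.6, 28.65, 19.2, 10.02 and 30.75 CPM in hawthorn. All apple libraries were above all hawthorn libraries. At 5 months apple had 17.55, 9.91, 3.39, 29.8 and 17.4 CPM and hawthorn 50.6, 42.0, 38.9, 25.2 and 20.2 CPM. Only apple replicate 4 reached the hawthorn range.

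The member with the largest difference of all, gene2300, was a feature of single libraries. At 2 months its apple libraries had 0.423, 408.5, 0.848, 1.185 and 0.507 CPM, and at 5 months its hawthorn libraries had 189, 0.837, 225, 1.26 and 1.06 CPM. In the other host it stayed at or below 0.493 CPM at 2 months and 0.845 CPM at 5 months. Its rank thus came from 1 pool at 2 months and 2 pools at 5 months. A further pool, hawthorn replicate 3 at 6 months, had 192 CPM while the others of that group had 0.729 to 1.42 CPM. The label of this library, unlike all others, has a letter (B) after the replicate number, and what it stands for was not examined. The count of gene2300 is spread over 10 transcripts in the deposited tables.

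The hawthorn-first members fell into groups that varied together from library to library. Correlations were taken over the 50 libraries after the mean of each host and month was removed, so that they describe the spread within groups, and members were joined where their mean distance (1 minus r) was under 0.5. The cutoff was chosen after the values were seen, and the points share library, depth and base composition. Of the 29, 12 formed 1 block (median pairwise r 0.87), 6 another (0.88) and 5 another (0.87), and 6 were outside these. Among the 71 apple-first members the main block held 21 (median r 0.58), with smaller ones of 7, 6 and 5. Blocks were joined by this r, so their medians are high by construction. Over all pairs of a set the median r was 0.19 in the 29 hawthorn-first and 0.22 in the 71 apple-first members. Over the 9548 features with a mean of at least 2 CPM it was -0.003.

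**Figure D3:**
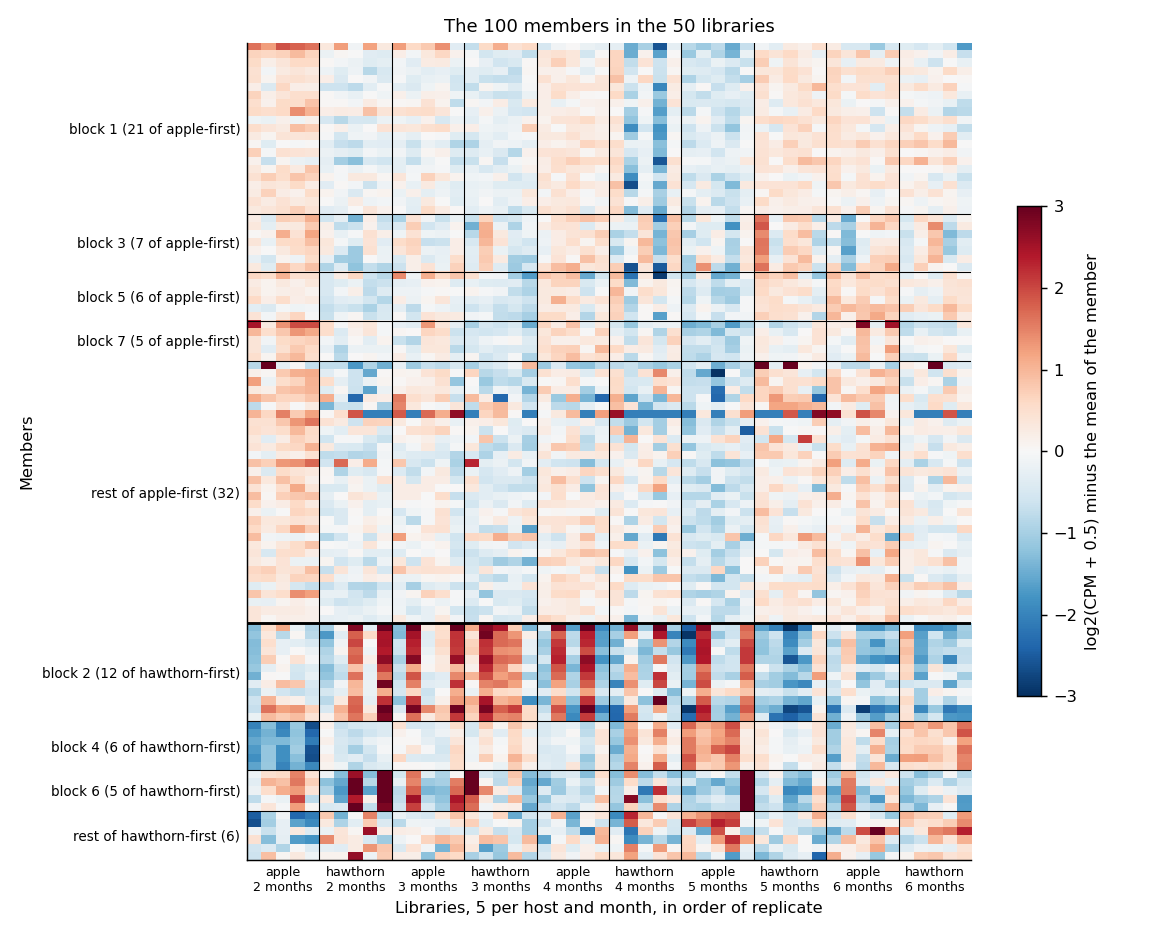
The 100 members (lines) in the 50 libraries (columns, by month and host), as log2(CPM + 0.5) minus the member's mean, with colours saturated at -3 and 3. Apple-first members are above the thick line and hawthorn-first members below it, each divided into the blocks that vary together. The block of 5 is high in a few single libraries of either host. The block of 12 is high in some libraries of either host, among them most hawthorn libraries of 3 months. The block of 6 is low in all apple libraries of 2 months.

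The block of 6 held abundant, short features, 399 to 921 bases long, 5 of which have consecutive identifier numbers. These features were lower in apple at 2 months and higher at 5 months in nearly every pool. The most abundant, gene1176 (mean 7327 TPM), had 724, 1047, 657, 1126 and 383 CPM in apple and 2267, 1615, 1158, 1591 and 2287 CPM in hawthorn at 2 months. All apple libraries were below all hawthorn libraries. At 5 months apple had 6868, 4907, 7982, 9429 and 2912 CPM and hawthorn had 2697, 2237, 1992, 2103 and 3348 CPM. Apple replicate 5 and hawthorn replicate 5 were in the range of the other host, and the other libraries did not overlap. The second, gene1175 (mean 5852 TPM), had 790.4 ± 182 CPM in apple and 1842 ± 393 in hawthorn at 2 months, and 4829 ± 1540 against 2233 ± 380.4 at 5 months (SD, n = 5 each).

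In the months that the choice did not use, all 6 features of this block had a negative log2 fold change. The range was -0.45 to -0.06 at 3 months, -0.96 to -0.49 at 4 months and -1.49 to -0.67 at 6 months. At 4 months the median of the block, -0.73, became 0.02 without hawthorn replicates 2 and 4, with 3 features positive, and 0.13 with the length slope as a term, with 5 positive. At 3 months it went from -0.17 to 0.13 with lane as a term, with 4 positive. In apple all 6 features had a higher mean at 5 than at 4 months, with a median log2 change of 1.38, and all 6 were lower at 6 months (-1.49). In hawthorn the median changes were -0.20 and 0.84. Counts of these features were not whole numbers in nearly all libraries (median 100% of libraries), which is how the counting program records reads shared between similar sequences. How the reads were divided among the 6 is therefore uncertain, and they may not be 6 independent measurements. The same holds in part for other named members, whose counts were not whole in 74% of libraries for gene7610, 52% for gene5375, 36% for gene13520, 60% for gene5831 and 100% for gene20021.

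At 2 and 5 months the host difference of the block of 12 was set by single pools. Its level on the centred log2 scale was 2.47 in hawthorn replicate 5 and 1.71 in hawthorn replicate 3 at 2 months, and between -0.90 and -0.10 in the other 3 hawthorn libraries, while apple ran from -1.16 to 0.43. At 5 months it was 2.23 in apple replicate 2 and 1.68 in apple replicate 5, and between -1.79 and -0.63 in the other 3, while hawthorn ran from -1.82 to 0.40. Libraries of this height were also seen in months that the choice did not use, such as apple replicates 2 and 5 at 3 months (2.18 and 2.13) and apple replicates 2 and 4 at 4 months (1.82 and 2.23). At 6 months no library was above 0.58. Outside the list, 95 further features had r of at least 0.8 with this block.

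Single members show the part of single pools at 2 and 5 months. In gene13520, second by the rule's difference among hawthorn-first members, hawthorn had 2.71, 6.16, 42.7, 4.55 and 59.4 CPM at 2 months and apple had 2.06, 8.59, 13.5, 5.04 and 2.94 CPM. The hosts overlapped except for hawthorn replicates 3 and 5. At 5 months its apple libraries had 0.656, 41.65, 3.77, 3.55 and 20.65 CPM and its hawthorn libraries 1.59, 1.05, 0.310, 0.964 and 6.22 CPM. The first by that difference, gene7610 of the block of 5, had 0.603, 0, 6.65, 0 and 48.2 CPM in hawthorn and 0.605, 1.20, 1.32, 2.91 and 1.115 CPM in apple at 2 months. Hawthorn replicates 1, 2 and 4 were below all apple libraries. At 5 months 1 apple library, replicate 5, had 41.5 CPM and the other 9 libraries of both hosts had at most 0.837 CPM. Hawthorn replicates 3 and 5 at 2 months were the only libraries of their group in lane 7, the other 3 being in lane 1.

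**Figure D4:**
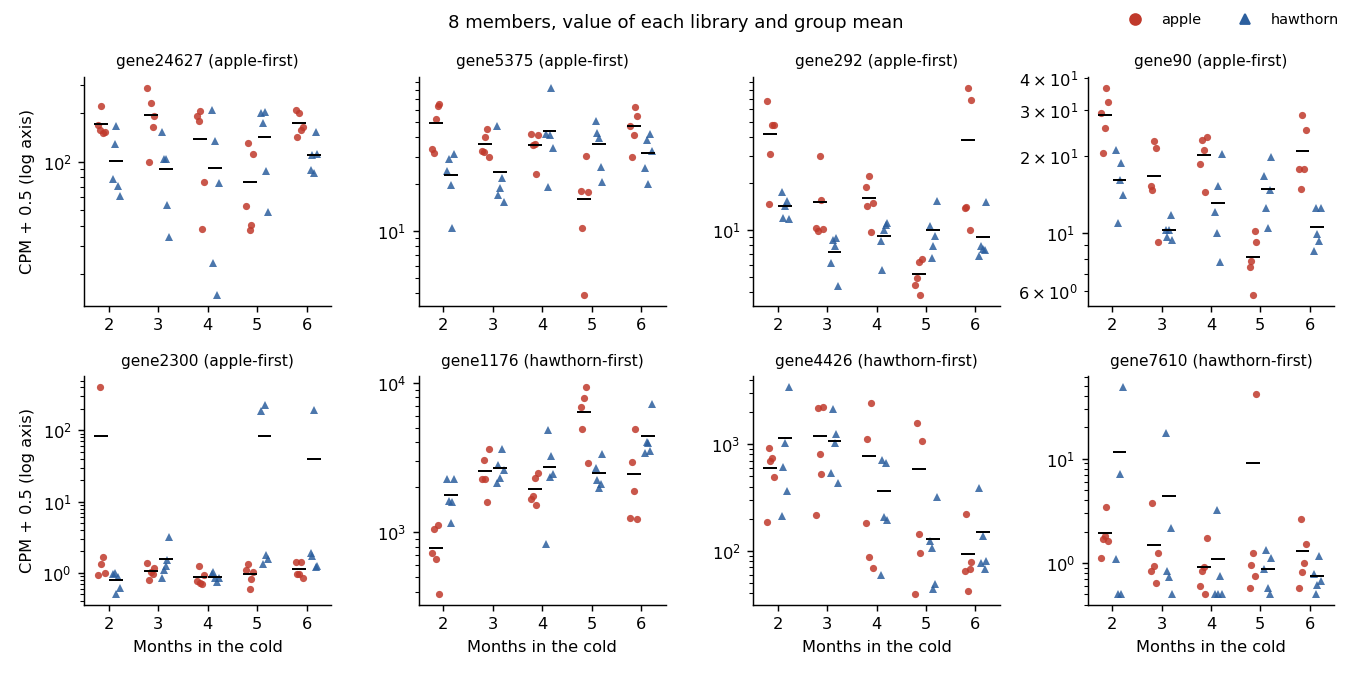
CPM + 0.5 on a log axis for 8 members in each library (circles apple, triangles hawthorn) at 2 to 6 months, with bars at the means of 5 libraries. The hosts trade places between 2 and 5 months in most libraries of gene1176 and gene5375, whereas gene2300 and gene7610 stand high in a few single libraries, such as the one with 408.5 CPM of gene2300.

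In the months that chose the list, calls and separated groups are counts only, and an excess over all features follows from the choice. At 2 months 15 members had an adjusted p under 0.05 in edgeR's quasi-likelihood test, beside 3.15% of the 13862 features tested, and in 30 members the hosts did not overlap, beside 7.85%. At 5 months the counts were 36 members beside 6.45%, and 33 beside 7.27%. Of the 36, 31 were apple-first and lower in apple, beside 3.55% of all features called in that direction. Among hawthorn-first members, the 6 that were separated at 2 months were the block of 6 described above.

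Host differences within the list were tested at 3, 4 and 6 months. At 3 months 0 of the 100 members passed edgeR's test, as did 0 of all 13862 features (0%). An unadjusted p under 0.05 was seen in 18 members, all apple-first, beside 9.19% of all features, and DESeq2 called 1 member, beside 0.334% of the features to which it gave an adjusted p. In 7 members, all higher in apple, the hosts did not overlap at 3 months, beside 3.22% of all features (1.87% higher in apple).

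At 4 months 4 members were higher in apple and 0 were lower, beside 9.45% of all features called (3.37% higher and 6.08% lower), a share above that of the members. The largest difference was in gene5895, with 5.95, 6.07, 6.27, 7.89 and 6.73 CPM in apple and 4.54, 2.07, 5.30, 2.83 and 5.215 CPM in hawthorn. All apple libraries were higher, and hawthorn replicates 2 and 4 were lowest. The difference was 0.72 on the log2 scale (SE 0.23, edgeR adjusted p = 0.0395). Next was gene20021 of the block of 21, with 16.6, 16.5, 18.5, 15.9 and 15.1 CPM in apple and 14.3, 6.11, 12.9, 3.69 and 13.9 CPM in hawthorn. The same 2 hawthorn libraries were lowest. Its log2 fold change was 0.69 (SE 0.202, edgeR adjusted p = 0.0236). Without these libraries the values were 0.36 and 0.25, the adjusted p was 0.744 for each, and 0 members were called. The hosts did not overlap in 4 members at 4 months, all higher in apple, beside 2.32% of all features (1.38% higher in apple).

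At 6 months 3 members passed, 2 higher in apple and 1 lower, beside 0.541% of all features (0.397% higher and 0.144% lower). Both that were higher in apple belonged to the block of 5 apple-first members. In gene292 apple had 13.4, 13.7, 82.65, 9.57 and 69.05 CPM and hawthorn had 6.27, 7.35, 7.015, 6.96 and 14.8 CPM. Apple replicates 3 and 5 were far above the rest, and hawthorn replicate 5 was above the other 3 apple libraries. The log2 fold change was 2.16 (SE 0.435, edgeR adjusted p = 0.0114). In gene90 apple had 17.2, 14.4, 28.2, 17.2 and 24.5 CPM and hawthorn had 8.05, 12.05, 9.41, 8.82 and 12.0 CPM. The groups did not overlap, and the log2 fold change was 1.01 (SE 0.23, edgeR adjusted p = 0.0255). As apple-first members both features were higher in apple at 2 months by the choice. There gene292 had 41.3 ± 19.99 against 13.7 ± 2.47 CPM and gene90 28.3 ± 6.14 against 15.65 ± 3.92 CPM (SD, n = 5 each).

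The third, gene7382 of the block of 6 hawthorn-first members, had 39.6, 161, 76.4, 165.5 and 44.9 CPM in apple and 296.5, 303, 232, 188 and 347 CPM in hawthorn at 6 months. All hawthorn libraries were higher. This was a log2 fold change of -1.49 (SE 0.368, edgeR adjusted p = 0.0481), and the call ended in 8 of the 10 fits that left out 1 of these libraries. Those of gene292 and gene90 ended in 3 and 5 of the 10. Apple replicates 3, 4 and 5 and hawthorn replicates 3, 4 and 5 at 6 months had single indexes, unlike all other libraries. Without these 6 libraries 0 members were called, with log2 fold changes of 0.995 for gene292, 0.66 for gene90 and -1.57 for gene7382. In lane 7 alone, with 4 pools of apple and 3 of hawthorn, they were 2.21, 1.07 and -1.20. In 4 members the hosts did not overlap at 6 months, beside 3.48% of all features.

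Whether the host difference changed between 3, 4 and 6 months was tested as an interaction over these months. In this test 0 members passed, beside 0.0505% of all features, and 9 members, all apple-first, had an unadjusted p under 0.05, beside 15.3% of all features, a share above that of the members. DESeq2 called 1 member, beside 2.08% of those with an adjusted p. The change of the host difference between 2 and 5 months was not tested, because it defines the list.

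The courses within each host were tested from 3 to 6 months, with libraries that the choice did not use beyond the minimum mean CPM. In apple 11 members were higher at 6 months and 2 lower, beside 6.85% of all features called (3.85% higher and 3% lower). In hawthorn 10 were higher and 1 was lower, beside 6.95% (4.41% higher and 2.53% lower). All features include scarcer ones than the members. Of the 5169 features with opposite signs, 511 were called in apple (350 higher and 161 lower) and 453 in hawthorn (330 higher and 123 lower). No library is shared by the apple and hawthorn comparisons, and 9 members were called in both, all in the same direction in both hosts (69.2% of the apple calls and 81.8% of the hawthorn calls). Of all features 468 (3.38%) were called in both, all in the same direction, which is 49.3% of the apple calls and 48.6% of the hawthorn calls. Except gene4426, all called members were apple-first.

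The clearest rise was that of gene884. In apple it had 21.3, 14.8, 24.75, 23.4 and 20.9 CPM at 3 months and 44.1, 51.4, 46.5, 50.5 and 47.5 CPM at 6 months. In hawthorn it had 16.55, 19.6, 15.7, 17.7 and 14.8 CPM at 3 months and 43.2, 33.35, 38.8, 51.1 and 38.9 CPM at 6 months. The months did not overlap in either host. The log2 fold change was 1.19 in apple (SE 0.167, edgeR adjusted p = 6.36e-06) and 1.28 in hawthorn (SE 0.169, edgeR adjusted p = 2.16e-06). Its host difference at 6 months was 0.22 (SE 0.165, edgeR adjusted p = 0.562).

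In hawthorn gene6 also rose, from 1.98, 1.725, 1.21, 1.41 and 0.840 CPM at 3 months to 3.49, 3.94, 4.44, 6.03 and 2.85 CPM at 6 months. All libraries of 6 months were higher. This is a log2 fold change of 1.53 (SE 0.278, edgeR adjusted p = 0.000406), and in apple it was 0.78 (SE 0.262, edgeR adjusted p = 0.0591). In gene292 the apple change was 1.35 (SE 0.419, edgeR adjusted p = 0.0408), and it was -0.13 without the single-index libraries. The change of gene2300 in hawthorn, 5.22 (SE 1.64, edgeR adjusted p = 0.0429), rested on 1 library and was -0.02 without it.

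The feature that fell in both hosts was gene5831 of the block of 21. It had 15.6, 9.67, 11.2, 16.9 and 4.84 CPM at 3 months and 7.504, 4.32, 4.31, 2.63 and 4.36 CPM at 6 months in apple. Replicate 5 of 3 months lay within the range of 6 months. The log2 fold change was -1.34 in apple (SE 0.338, edgeR adjusted p = 0.00916) and -1.21 in hawthorn (SE 0.342, edgeR adjusted p = 0.0221). With lane as a term these were -0.76 and -0.52, and neither passed. The other fall was in gene4426 of the block of 12, which had 219, 2174, 810, 522 and 2242 CPM at 3 months and 64.8, 219, 41.3, 66.9 and 78.3 CPM at 6 months in apple. Replicate 1 of 3 months was level with the highest library of 6 months. The log2 fold change was -3.66 (SE 0.999, edgeR adjusted p = 0.0174), and in hawthorn it was -2.85 (SE 0.964, edgeR adjusted p = 0.063).

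The lanes of the groups are a value that moves with the list. Lanes 2 and 3 held apple at 2 months and hawthorn at 5 months, the higher groups of the apple-first members. The part of lane in the host difference at 2 and 5 months was not tested. Between lanes of 1 group at 3, 4 and 6 months, the median log2 difference of the 71 apple-first members was between -0.04 and 0.08. Their blocks moved apart within this median. At 6 months in apple, lane 6 (1 library) minus lane 7 was -0.70 in the block of 5, with 0 of 5 members higher, and 0.26 in the block of 21, with 19 of 21 higher. For the 29 hawthorn-first members it ran from -0.78 to 0.48, with 1 to 4 libraries on each side. With lane as a term the medians at 2 and 5 months were 0.66 and -0.74 for apple-first members and -0.75 and 1.26 for hawthorn-first members. In that fit 70 of 71 and 23 of 29 members kept their sign at 2 months, 69 of 71 and 29 of 29 at 5 months, and 0 members were called at any month. At 2 months the median of the block of 5 hawthorn-first members turned from -1.84 to 0.29, with 4 of 5 positive. That of the block of 12 went from -1.16 to -0.67. Hosts shared no lane at 2 or 5 months, so kept signs do not separate lane from host.

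The 2 sets differed in length. The median length was 2371 bases in apple-first members and 629 bases in hawthorn-first members, beside 1843 bases over the 9548 features. At 5 months the length slopes were -0.0329 ± 0.108 in apple and 0.114 ± 0.0656 in hawthorn (SD, n = 5 each), so that longer transcripts were more represented in hawthorn. At 2 months they were -0.0202 ± 0.0748 and -0.0696 ± 0.0511. With the length slope of each library as a term the apple-first medians were 0.54 and -0.65 at 2 and 5 months, the hawthorn-first medians were -1.19 and 1.52, and all 100 members kept their sign in both months. The members called at 5 months went from 31 to 11 apple-first and from 5 to 0 hawthorn-first. The 5-month median of the block of 21 went from -0.70 to -0.41, and that of the block of 6 hawthorn-first members from 1.08 to 0.53. In the block of 6 apple-first members it went from -0.75 to -0.43. At 4 months this term moved the hawthorn-first median from -0.53 to 0.46.

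The rule scaled each library by its total, and this scaling shifted all features together. The median difference over the 9548 features was 0.277 at 2 months and -0.066 at 5 months on that scale, and 0.012 and 0.020 with TMM factors. All 100 members kept opposite signs at 2 and 5 months with TMM factors. This follows from the choice, as their smaller differences were at least 0.644 and the shifts were below that. Applied to TMM-scaled CPM, the rule would take 61 of the same 100 members, and its list would hold 32 apple-first and 68 hawthorn-first features. The split of 71 to 29 thus depends on the scale. With TMM factors 4657 features had opposite signs, and 2308 of these were higher in apple at 2 months.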

How the data were processed

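RNA of pupal CNS pools was sequenced from stranded libraries, mapped to the Rhagoletis zephyria genome with STAR and counted with RSEM, per the labels' protocols and the submitters' processing notes, which give no versions. The authors deposited, per library and feature, RSEM's expected counts, TPM and a length in bases. The deposited expected counts gave CPM and were rounded to whole numbers for tests. The deposited TPM were used only to give levels per length. Genome coordinates, names and sequences were not used here.

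All 100 members were among the 13862 features kept by edgeR's filter on low counts. Tests were edgeR's quasi-likelihood F test (edgeR 4.0.16, R 4.3.3) over all 50 libraries, with 1 mean per host and month, TMM factors, and Benjamini-Hochberg adjustment over all features; a feature was called at an adjusted p under 0.05. The procedure was tested on simulated data. DESeq2 (1.42.0) was an alternative. The length slope of a library is that of its centred log2 CPM on log2 length. Lanes and index types were read from run information left with the deposited data.

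The members, lists and tests were chosen with earlier results of these data known. Named features are the first 2 members of each starting direction by the rule's smaller difference, the 2 of each with the highest mean CPM, and for each tested comparison up to 2 called members with the largest fold change in each direction. No pair of replicates was a duplicate (smallest chi-square per feature 12.1 over 100 pairs). CPM values have no interval here beyond the spread between pools.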

Additional observations from a re-analysis of the deposited data

Results flagged for a closer look

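In groups of 5 libraries, a library was listed where its gap to the nearest other library was more than 0.71 of the whole range of the group. Among 190 groups (17 named features and the levels of both sets, over 10 groups of host and month), 20 met this. For values with a normal spread, chance alone lists about 1 in 20. The CPM of the named features were used without logs, so this rate need not hold for them. The explanations were not tested.

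Of these, 12 belonged to features, or to members of a block, already described as high in single pools. For gene2300, apple replicate 2 at 2 months had 408.5 CPM beside 0.423 to 1.185 CPM in the others of its group, and hawthorn replicate 3 at 6 months had 191.6 CPM beside 0.729 to 1.42. For gene7610, hawthorn replicate 5 at 2 months had 48.19 CPM beside at most 6.65, apple replicate 5 at 5 months 41.48 beside at most 0.754, hawthorn replicate 1 at 3 months 16.96 beside at most 1.68, apple replicate 2 at 3 months 3.223 beside at most 0.760, and hawthorn replicate 2 at 4 months 2.696 beside at most 0.246. In gene4426, hawthorn replicate 5 stood at 3440 CPM at 2 months and at 321 CPM at 5 months, beside at most 1034 and 123, hawthorn replicate 1 at 6 months at 383.8 beside at most 136, and apple replicate 2 at 6 months at 219.1 beside at most 78.3. In gene13520, of the same block, hawthorn replicate 5 at 5 months had 6.217 CPM beside at most 1.59.

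Single libraries of other named members also stood apart. Hawthorn replicate 1 at 3 months had 46.7 CPM of gene5375 beside 14.8 to 21.5 CPM. Apple replicate 3 at 2 months had 222.9 CPM of gene24627 beside 150.5 to 168. Hawthorn replicate 4 at 2 months had 61.68 CPM of gene2899 beside 43.1 to 47.7. Hawthorn replicate 5 at 6 months had 7189 CPM of gene1176 beside 3406 to 3993, and 14.76 CPM of gene292 beside 6.27 to 7.35. Apple replicate 3 at 3 months had 29.61 CPM of gene292 beside 9.32 to 15.2. Apple replicate 1 at 2 months had 7.62 CPM of gene5895 beside 5.57 to 6.12. Apple replicate 4 at 4 months was the only library below its group, with 18.68 CPM of gene884 beside 28.9 to 31.2.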

How the results depend on the processing

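Calls over all features moved too, across the settings below and the fits that left out 1 library. They ran from 0 to 40 at 3 months, 0 to about 3300 at 4 months and 0 to 403 at 6 months. In the interaction they ran from 0 to 992, and from 3 to 6 months from 66 to about 1640 in apple and 123 to about 1560 in hawthorn. With other settings, the count of members called between hosts at 3 months (0) was 1 by DESeq2 and 1 with the length slope. At 4 months (4 members) it was 1 without the filter on low counts, 7 by DESeq2, and 0 with lane as a term, with the length slope, without hawthorn replicates 2 and 4, and with only the 2 groups fitted. At 6 months (3 members) it was 7 by DESeq2 and with the length slope, 5 without the outlying libraries of 4 months, and 0 with lane, without single-index libraries, with only the 2 groups, and within lane 7. DESeq2 called 1 member in the interaction (0). From 3 to 6 months, apple (13 members) had 20 by DESeq2, 1 with lane, 25 without the outlying libraries, 2 without single-index libraries and 21 with only the 2 groups, and hawthorn (11 members) had 18, 4 without single-index libraries and 19 with only the 2 groups. The sign of 5 months was seen at 4 months in 46 members with the length slope and in 60 without the outlying libraries (29 with all), and at 6 months in 41 without single-index libraries (26). The list kept 62 members with a minimum of 5 CPM, 56 with medians and 61 with TMM factors, and the cause of these changes was not tested.

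Leaving out 1 library gave 0 to 0, 0 to 23 and 0 to 7 calls at 3, 4 and 6 months, 0 to 5 in the interaction, 7 to 18 in apple and 7 to 12 in hawthorn from 3 to 6 months. Signs counted 68 to 80 (2-month sign at 3 months), 18 to 37 and 19 to 34 (5-month sign at 4 and 6 months), and 78 to 93 members stayed in the list. The 23 were without hawthorn replicate 1, and 0 were called at 4 months without apple replicate 3 or hawthorn replicate 2 or 4. At 6 months 0 were called without apple replicate 3 or 5 or hawthorn replicate 3. The lowest counts from 3 to 6 months were without apple replicate 5 and hawthorn replicate 3 of 3 months, and the 5 interaction calls were without hawthorn replicate 1 of 4 months. The change of gene292 in apple was -0.125 (adjusted p = 0.954) without single-index libraries and that of gene2300 in hawthorn -0.023 (0.996) without replicate 3 of 6 months and up to 5.824 without any other library. Those of gene884 in apple and gene6 in hawthorn passed in every alternative run. The change of gene884 in hawthorn was not followed through the alternatives.

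The replicate numbers were not taken to pair the libraries. The labels name nothing that libraries of 1 number share, and 59 of 225 same-numbered pairs from different groups had an r over 0.1 (range -0.35 to 0.389). Of the 50 libraries 18 had their highest mean r with their own number among 5. Mean r was 0.0186 with libraries of the same number and -0.00426 with those of other numbers, so some shared structure is possible. With the replicate block the counts were 0, 6 and 3 members at 3, 4 and 6 months, 0 in the interaction, and 13 in apple and 10 in hawthorn from 3 to 6 months. The sign counts with the block were 80, 26 and 27. Between 3 and 6 months gene292 in apple (1.217, adjusted p = 0.0504) and gene2300 in hawthorn (3.463, adjusted p = 0.293) did not pass with the block. The other calls for which members were named held. Depth was 8718271 expected counts or more per library, and 5 pools a group leave differences under the spread between pools undetected.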
